A study of Homo sapiens with 6 samples.

Results

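Complement is a blood-borne and cell-surface defence system, and 9 of its genes are described here in a human mesenchymal breast cancer line, MDA-MB-231. They are C3, the proteases CFB, CFD, C1R and C1S, the protease inhibitor SERPING1 and the membrane regulators CD46, CD55 and CD59. They were chosen with earlier results of these data known, and their probes were taken by gene symbol. Of the 47322 probes of the chip, 17 carry one of these symbols, out of 31424 symbols in all. Total RNA of 6 samples was read on the HumanHT-12 v4 BeadChip of Illumina, 1 array each. The control group of 3 arrays came from cells transduced with a scrambled short hairpin RNA (shRNA), and the other group of 3 arrays from cells transduced with 1 hairpin against SOX4, a transcription factor. Both groups were grown in DMEM with Glutamax, fetal bovine serum and antibiotics, and the labels name no other agent or allele. Whether replicates came from separate cultures is not stated in the labels, and a p-value here therefore reflects the spread among these arrays, possibly a technical one. Nor do they say whether a transduced line was a pool or 1 clone.

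The routes that start complement meet at the cleavage of C3. In the classical route C1R and C1S are the proteases of the C1 complex, which SERPING1 (C1 inhibitor) inactivates. In the alternative route CFB (factor B) joins C3b and is cut by CFD (factor D), which yields the enzyme that cleaves more C3. Cells protect themselves at the surface: CD55 (decay-accelerating factor) takes convertases apart, CD46 (membrane cofactor protein) assists the breakdown of C3b, and CD59 blocks assembly of the membrane attack complex. Most circulating complement protein comes from the liver, and epithelial and tumour cells can also make several components and carry these regulators.

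On each array between 15197 and 16187 probes were detected, that is, had a detection p under 0.01 against the negative controls of the chip. Precision is limited by the 3 arrays per group. The targeted transcript, SOX4, had deposited intensities of 291, 357 and 336 on the scrambled arrays and 136, 155 and 146 on the SOX4 shRNA arrays, and its probe was detected on 2 of the latter. After background correction and normalization its log2 difference was -2.43 (adjusted p = 4.11e-13, limma), and without background correction -1.23, so that the size of the fall rests on how the background is treated. Among markers, VIM, CD44, AXL, CAV1, MSN and MET were detected on all 6 arrays, and ESR1, PGR and CDH1 on none. ERBB2 (390 to 496) and EPCAM (267 to 390), listed as low in this line, were also detected on all 6, and EPCAM rose by 0.49 on the log2 scale (adjusted p = 0.000199, limma). Scrambled arrays are numbered 1, 2a and 2b, because a pair of columns carry the heading of scrambled replicate 2 and none that of replicate 3. Values of 3 arrays below are given in the order 1, 2a, 2b and 1, 2, 3.

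Among the 9 genes, 5 were above background on every array and could be compared. CFB and CD55 rose with the SOX4 hairpin, by 2.28-fold and 1.60-fold. CD46, CD59 and CFD fell, by 1.55-fold, 1.42-fold and 1.26-fold. C3, C1R, C1S and SERPING1 had no probe above background on any array. All 5 comparable genes passed an adjusted p of 0.05 in limma, 2 higher and 3 lower, and in each the groups did not overlap. The background is high in this experiment: 30.6% of the 12451 genes and unnamed probes tested passed, 15.2% higher and 15.4% lower, and in 42.0% the groups did not overlap. Because the 9 genes were chosen with earlier results of these data known, their share cannot be weighed against these shares. The median log2 difference of the 5 genes was -0.33, beside -0.01 over all tested. In bulk RNA, fewer expressing cells and less RNA per cell cannot be told apart.

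**Figure D1:**
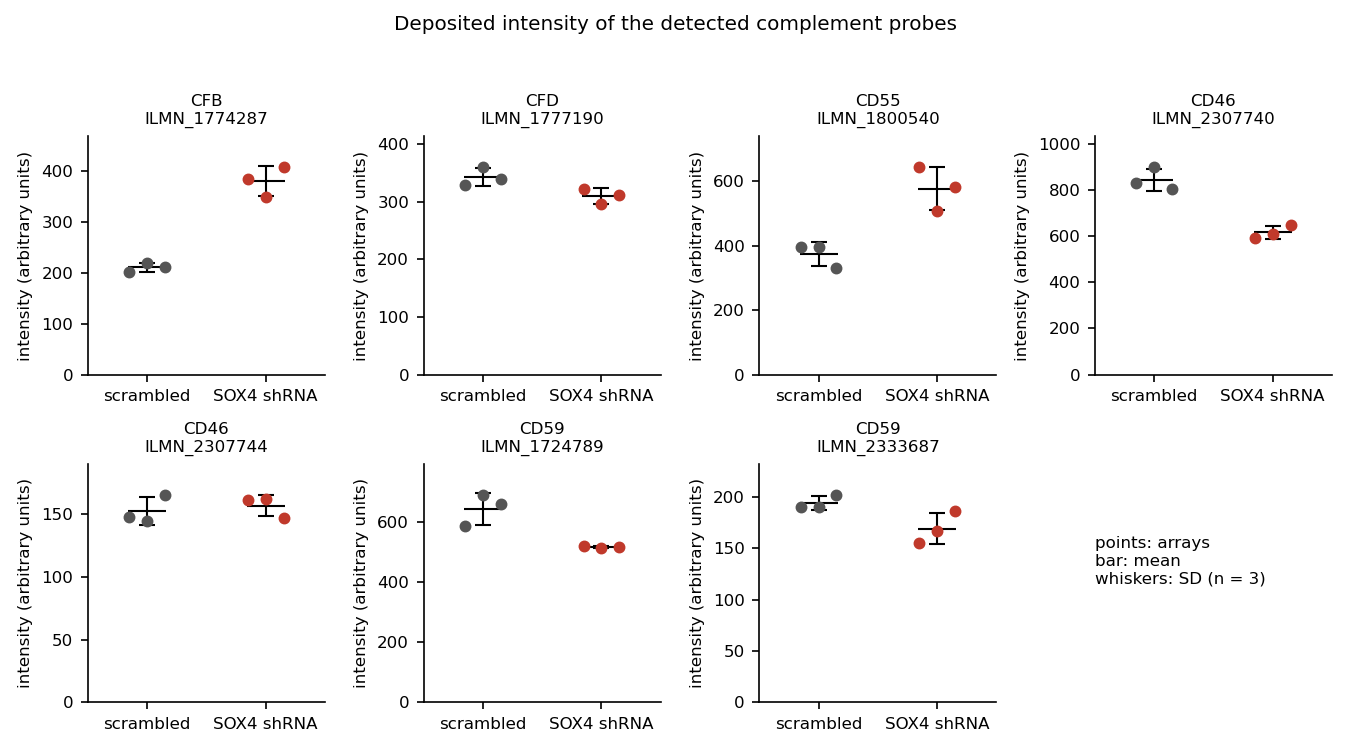
Deposited intensity (arbitrary units, axes from 0) of the 7 probes of CFB, CFD, CD55, CD46 and CD59, with 1 point per array, a bar at the mean and whiskers for the SD (n = 3 per group). The groups are apart on every probe except the second CD46 probe, where 144 to 165 faces 147 to 161.

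CFB, the catalytic subunit of the alternative-route convertase, changed most. Its single probe, ILMN_1774287, read 203, 220 and 213 on the scrambled arrays and 386, 350 and 408 on the SOX4 shRNA arrays. The lowest SOX4 shRNA array lay well above the highest scrambled one. On the normalized log2 scale its level was 6.89 ± 0.04 (SD, n = 3) and 8.08 ± 0.14 (SD, n = 3), a difference of 1.19 ± 0.10 (SE) with a 95% interval of 0.98 to 1.40 (adjusted p = 8.09e-10, limma). Of all rows tested, 1.5% had a larger difference in either direction. Without background correction the CFB difference was 0.766, and it stayed past the threshold in all 15 alternative settings. The authors' deposited table gives a fold of 2.49.

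CFD, the serine protease that activates factor B, moved the other way and by less. Its probe, ILMN_1777190, read 329, 360 and 340 on the scrambled arrays and 322, 296 and 312 on the SOX4 shRNA arrays. The groups did not overlap, but the lowest scrambled and the highest SOX4 shRNA array were close. The log2 difference was -0.33 ± 0.09 (SE, n = 3 per group), with a 95% interval of -0.52 to -0.14 (adjusted p = 0.00755, limma), and 22% of rows tested had a larger one. Across the alternative settings its difference ran from -0.388 to -0.228 and the highest adjusted p in limma was 0.048. The 2 proteases of the alternative route thus had opposite signs.

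The promoter of CFB is shown because this gene had the largest difference among the 9. It is the 250 bases before the RefSeq start at chr6:31945845-31946094 of GRCh38.p14, plus strand, written 5′ to 3′, and capitals mark the motif matches found on either strand.
CFB promoter: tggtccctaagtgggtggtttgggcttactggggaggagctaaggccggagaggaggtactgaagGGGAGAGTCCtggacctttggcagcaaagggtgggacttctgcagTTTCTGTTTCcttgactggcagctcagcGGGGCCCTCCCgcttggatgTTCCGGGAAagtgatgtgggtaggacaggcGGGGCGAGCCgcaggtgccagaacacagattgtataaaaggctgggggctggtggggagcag
The search covered a loose form of the NF-kB site (GGG, any 5 bases, CC), TTCNNNGAA, the GAS form bound by STAT factors, the ISRE form bound by interferon regulatory factors (GAAA, any 2 bases, GAAA) and AACAAAG, a SOX form. The CFB window held an ISRE form beginning 140 bases before the start, a GAS form at 92, NF-kB forms at 185, 112, 111 and 62, those at 112 and 111 overlapping, and no SOX form. Among 34943 windows of this length, 3.02% held the ISRE form, 6.56% the GAS form, 54.4% the NF-kB form and 4.51% the SOX form. A match describes letters in the window and is not a site shown to be used.

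The 3 membrane regulators did not move together. CD55, which dismantles the convertases, read 396, 395 and 331 on the scrambled arrays and 643, 507 and 583 on the SOX4 shRNA arrays with its only probe, ILMN_1800540. The spread was wider than for CFB and the groups were still apart. The log2 difference was 0.68 ± 0.10 (SE, n = 3 per group), with a 95% interval of 0.46 to 0.89 (adjusted p = 1.5e-05, limma). Leaving out 1 array at a time gave 0.562 to 0.792, and every setting kept the call. The authors' deposited table gives a fold of 1.62.

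CD46, the cofactor for cleavage of C3b, fell on its brighter probe. That probe, ILMN_2307740, read 829, 897 and 803 on the scrambled arrays and 591, 608 and 648 on the SOX4 shRNA arrays, or -0.63 ± 0.07 (SE) as a log2 difference (adjusted p = 7.64e-08, limma). The other probe, ILMN_2307744, was far dimmer and its groups overlapped: it read 147, 144 and 165 against 161, 161 and 147. Its log2 difference was -0.02 with a 95% interval of -0.42 to 0.37 (adjusted p = 0.943, limma, every kept probe tested). The upper and lower ends of that interval hold both a fall and a rise of moderate size, so the dim probe does not settle whether it moved. The interval does not reach the -0.63 of the brighter probe. Which transcripts each probe reads was not analysed here, and the difference between the probes was not tested. The CD46 call was lost with the authors' values, which have 1 row per gene, at -0.342 (adjusted p = 0.136, limma).

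CD59, the inhibitor of the membrane attack complex, fell on both of its probes. The brighter one, ILMN_1724789, read 587, 690 and 660 on the scrambled arrays and 521, 513 and 518 on the SOX4 shRNA arrays. The SOX4 shRNA arrays lay close together below every scrambled array. The log2 difference was -0.50 ± 0.07 (SE, n = 3 per group), with a 95% interval of -0.66 to -0.35 (adjusted p = 7.1e-06, limma). The dimmer probe, ILMN_2333687, read 190, 190 and 201 against 155, 166 and 186, or -0.58 ± 0.15 (SE) as a log2 difference (adjusted p = 0.0038, limma, every kept probe tested). The authors' deposited table gives a fold of 0.64 for CD59 and 0.79 for CD46.

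The promoters of the 3 membrane regulators are shown to set the raised one beside the lowered ones. Each is the 250 bases before the outermost RefSeq start in GRCh38.p14, on the strand of the gene, with matches to the same 4 motifs in capitals. CD55 is at chr1:207321428-207321677 on the plus strand, CD46 at chr1:207751788-207752037 on the plus strand and CD59 at chr11:33736480-33736729 on the minus strand.
CD55 promoter: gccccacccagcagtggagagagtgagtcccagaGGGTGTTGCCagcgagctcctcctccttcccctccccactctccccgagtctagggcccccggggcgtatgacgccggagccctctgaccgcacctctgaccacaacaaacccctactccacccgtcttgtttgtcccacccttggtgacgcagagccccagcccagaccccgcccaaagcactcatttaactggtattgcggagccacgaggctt
CD46 promoter: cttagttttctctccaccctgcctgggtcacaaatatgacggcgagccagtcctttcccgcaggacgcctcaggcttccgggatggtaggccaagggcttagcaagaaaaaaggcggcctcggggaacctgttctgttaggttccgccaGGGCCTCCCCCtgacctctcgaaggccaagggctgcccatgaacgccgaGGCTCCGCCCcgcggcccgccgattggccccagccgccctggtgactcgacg
CD59 promoter: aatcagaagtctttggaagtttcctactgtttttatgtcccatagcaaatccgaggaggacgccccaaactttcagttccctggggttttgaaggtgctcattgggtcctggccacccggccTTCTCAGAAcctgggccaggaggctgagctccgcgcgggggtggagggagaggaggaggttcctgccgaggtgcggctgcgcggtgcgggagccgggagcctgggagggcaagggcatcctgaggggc
The CD55 window held 1 NF-kB form, 216 bases before the start. In CD46 there were 3, beginning at 101, 100 and 52 bases, and the first pair of these overlap. The CD59 window held a GAS form at 128 bases and no NF-kB form, although windows of 2 of its 3 other RefSeq starts did hold NF-kB forms. None of the 3 printed windows held the ISRE or the SOX form. The loose NF-kB form, present in 54.4% of windows, was found beside the raised CD55 and the lowered CD46. The window of CFD, which also fell and is not printed, held it at 227, 226, 57, 56, 51 and 16 bases. Whether these matches bear on the differences was not tested.

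**Figure D2:**
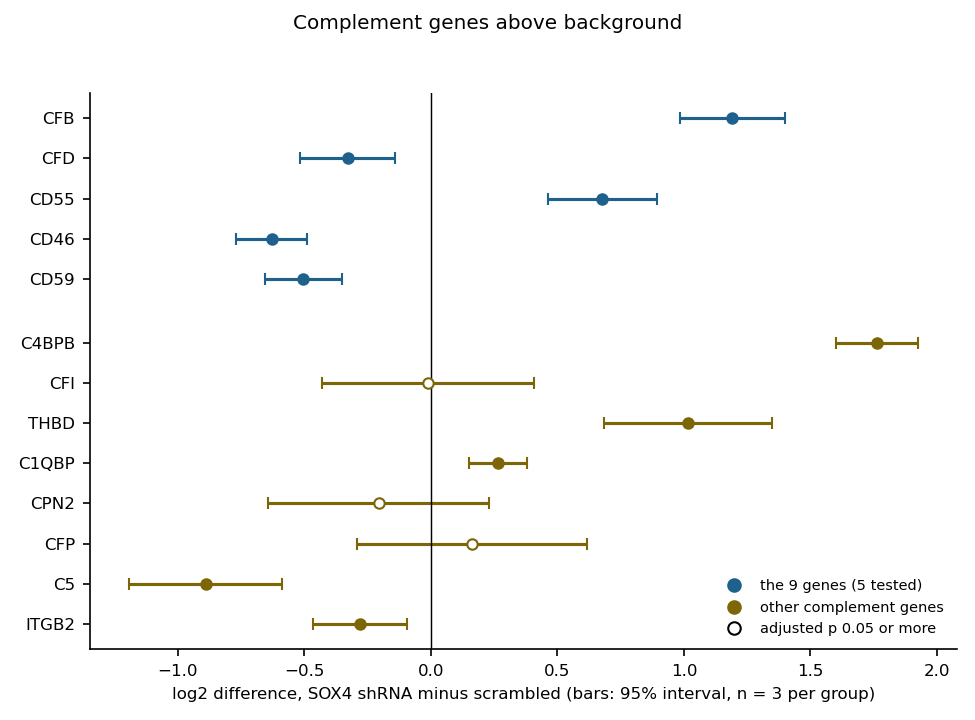
Log2 difference, SOX4 shRNA minus scrambled, of the 5 tested genes among the 9 (blue) and of other tested complement genes (ochre). Bars are 95% intervals (n = 3 per group), and open circles mark an adjusted p of 0.05 or more. CFI, CFP and CPN2 were above background on some arrays only. CFB (1.19) and CD55 (0.68) lie to the right, CFD (-0.33), CD46 (-0.63) and CD59 (-0.50) to the left, and C4BPB (1.76) lies farthest right.

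The central component and the classical-route genes could not be compared. C3 has 2 probes. ILMN_1762260 read 108, 116 and 111 on the scrambled arrays and 109, 113 and 109 on the SOX4 shRNA arrays. ILMN_1662523 read 109, 105 and 112 against 118, 118 and 120. On the second probe the SOX4 shRNA arrays were all higher, but its lowest detection p was 0.286, so no array gave a signal above background and no fold is given. With no detection filter and the brightest probe of each gene tested, the log2 difference of this probe was 0.16 ± 0.09 (SE, n = 3 per group; adjusted p = 0.337, limma).

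C1R and C1S, the proteases of the C1 complex, were likewise at background. The 4 probes of C1R had group means of 112 to 119 on the scrambled arrays and 119 to 122 on the SOX4 shRNA arrays. The highest reading, 131 on SOX4 shRNA array 1 with ILMN_1656242, had a detection p of 0.030, and the other SOX4 shRNA arrays read 116 and 111 there. C1S probe ILMN_1781626 read 114, 121 and 116 against 130, 129 and 122, and its other probe read 103 to 111 on all arrays. On that first C1S probe and on C1R probe ILMN_1677198 (112, 115 and 109 against 124, 117 and 124) the SOX4 shRNA arrays were all higher, yet below the detection limit. SERPING1, the inhibitor of these proteases, had 2 probes with means of 120 and 124 on the scrambled arrays and 117 and 123 on the SOX4 shRNA arrays, and its groups overlapped on both. Over these 10 probes the intensity ran from 103 to 131, whereas the lowest signal of a detected probe was 132 to 140 depending on the array. Not above background means that a level under this limit cannot be told from none.

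**Figure D3:**
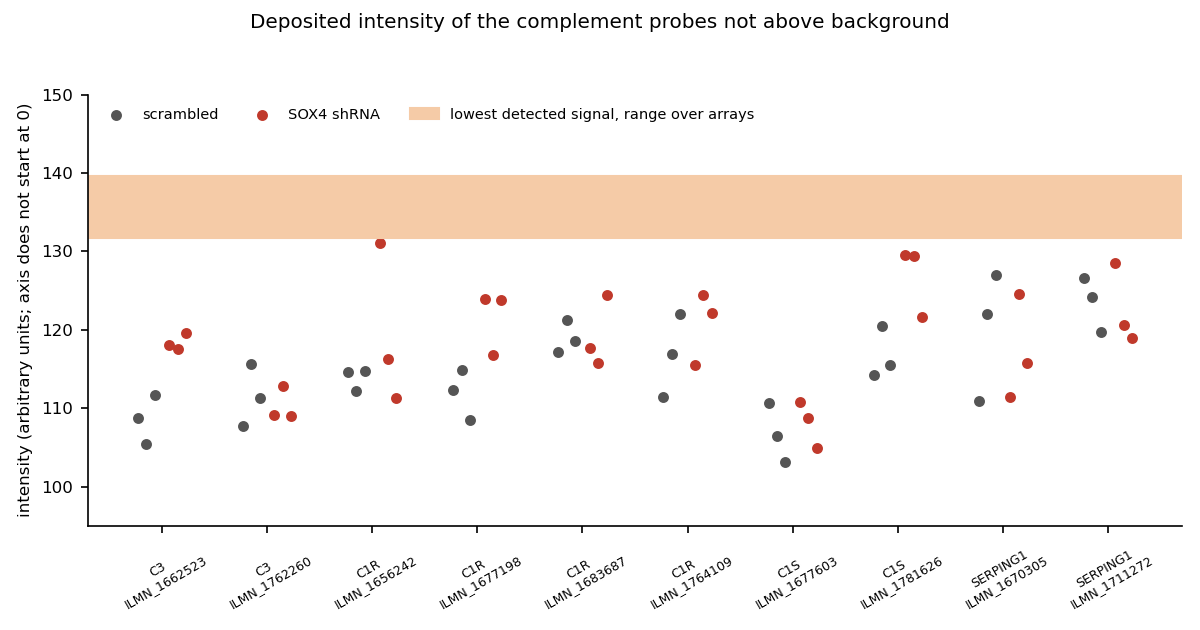
Deposited intensity (arbitrary units, axis not from 0) of the 10 probes of C3, C1R, C1S and SERPING1, 1 point per array, grey for scrambled and red for SOX4 shRNA. The band is the range over arrays of the lowest signal of any detected probe (132 to 140), and all points lie under it, between 103 and 131.

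The other genes of the pathway were taken from a list drawn up by role, with earlier results of these data known. Of 51 such genes on the chip, 38 had no probe above background on any array and 4 had one on a single array (C1QA, C2, C4A and CFHR5). The remaining 9 were tested, of which 3 rose, 3 fell and 3 did not pass. That is 66.7% of those tested, beside 30.6% of all rows, with a median log2 difference of -0.01. No gene listed under recognition and the classical or lectin proteases reached the test.

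C4BPB, the beta chain of C4b-binding protein, which restrains the classical convertase, had the largest change of all complement genes tested. Its brighter probe, ILMN_1694588, read 545, 522 and 456 on the scrambled arrays and 1594, 1599 and 1567 on the SOX4 shRNA arrays. It rose 3.39-fold, with 1.76 ± 0.08 (SE) as the log2 difference between 3 and 3 arrays (adjusted p = 2.1e-15, limma), and its other probe gave 1.72. The alpha chain gene C4BPA was not above background on any array. CFI, the protease that CD46 assists, had a log2 difference of -0.01 with a 95% interval of -0.43 to 0.41. Its probe was detected on 2 scrambled arrays and 1 SOX4 shRNA array, so this difference was read near the detection limit.

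THBD (thrombomodulin), which also promotes inactivation of C3b, read 132, 148 and 137 against 181, 184 and 199 and rose by 1.02 (log2) with an SE of 0.16 (adjusted p = 2.18e-05, limma). C1QBP, an abundant mitochondrial protein that binds C1q, rose by 0.27 ± 0.06. C5, the start of the terminal route that CD59 guards against, read 180, 193 and 194 against 146, 157 and 156. It fell by 0.89 (log2) with an SE of 0.15 (adjusted p = 3.62e-05, limma). ITGB2, the beta chain of the complement receptors CR3 and CR4, fell by 0.28 on one probe, a call lost in 6 of 15 settings, and had -0.14 on the other. CFP (properdin) and CPN2 had log2 differences of 0.16 and -0.21 with intervals of -0.29 to 0.62 and -0.64 to 0.23. These too were read near the detection limit. CFP was detected on 2 scrambled and 2 SOX4 shRNA arrays, and CPN2 on 2 scrambled arrays and 1 SOX4 shRNA array. C5 and THBD are dim, and without background correction their differences were -0.368 and 0.384. Both kept their calls there.

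**Figure D4:**
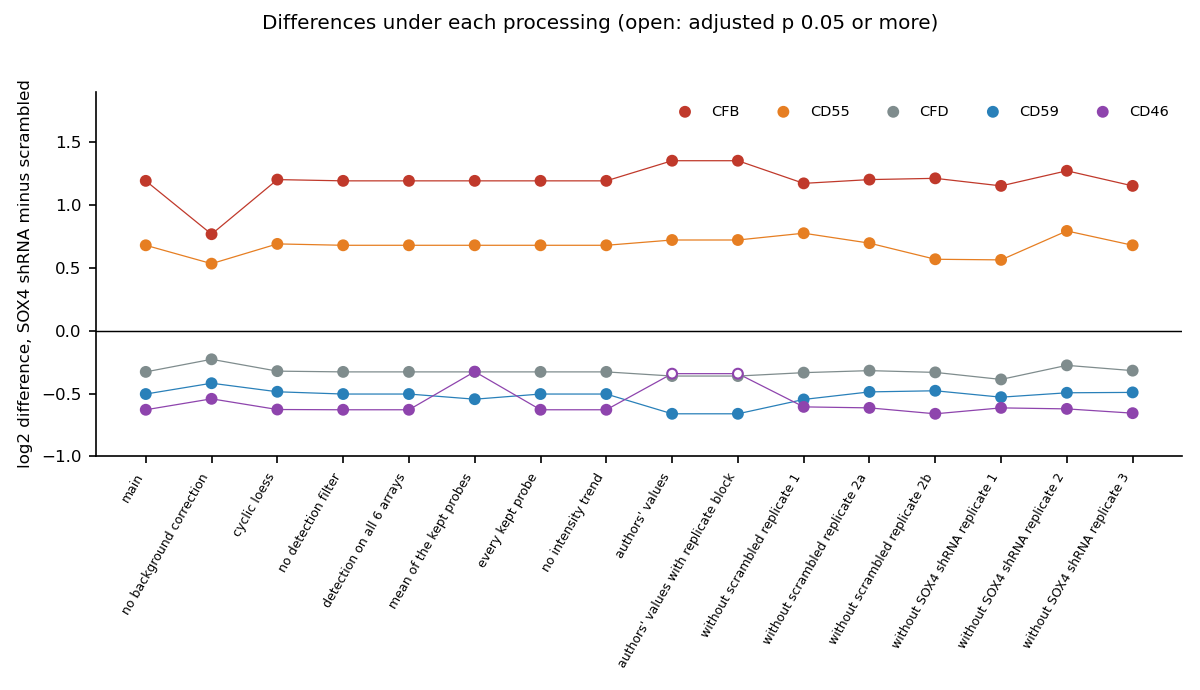
Log2 difference, SOX4 shRNA minus scrambled, of CFB, CD55, CFD, CD59 and CD46 under the main processing and 15 alternatives, with open circles where the adjusted p was 0.05 or more. No gene crosses 0, and CD46 is open with the authors' values (-0.342), with and without the replicate block.

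CD55 and CD46 belong to a cluster of complement regulator genes on chromosome 1 that also holds C4BPB, C4BPA, CR2 and CR1, in the order C4BPB, C4BPA, CD55, CR2, CR1, CR1L, CD46 of the RefSeq table. C4BPB and CD55 at one end rose and CD46 at the other end fell, and the 4 genes between them (C4BPA, CR2, CR1 and CR1L) were not above background on any array. The 3 protein-coding neighbours on each side, chosen after values were seen, were C1orf116, PFKFB2 and YOD1, and CD34, PLXNA2 and CAMK1G. YOD1 had a log2 difference of 0.51, and PFKFB2 had 0.13 and did not pass. C1orf116 was detected on 2 scrambled and 3 SOX4 shRNA arrays, and its log2 difference was 1.48, or 0.608 without background correction. CD34 was detected on 1 scrambled and 3 SOX4 shRNA arrays, so it entered the test through the group where it was high. Its 1.04, or 0.353 without background correction, is set against a group mostly at background. The calls of YOD1 and CD34 were lost with the authors' values (0.259 and 0.186).

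**Figure D5:**
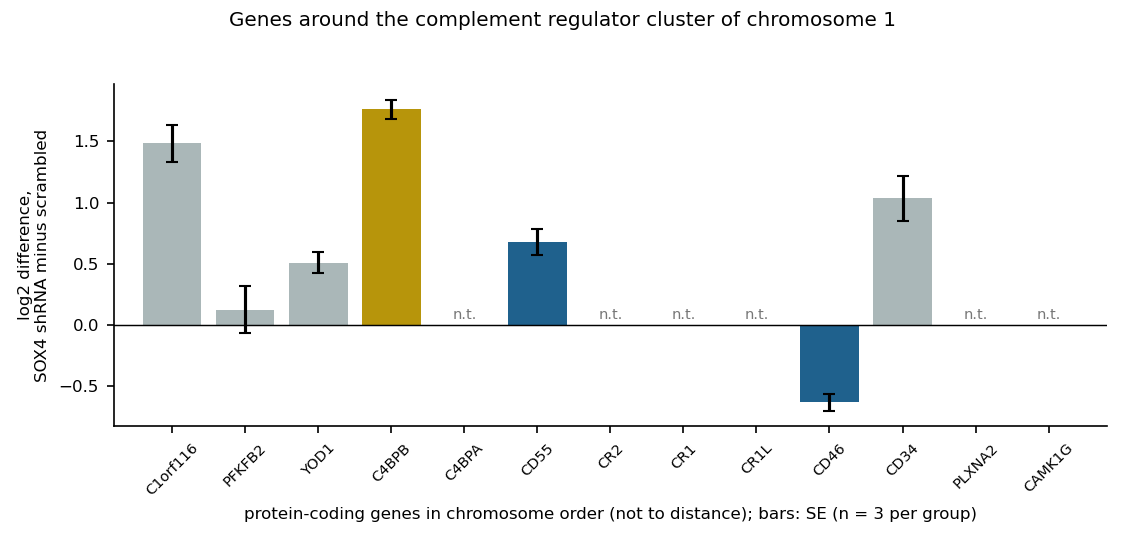
Log2 difference (bars, SE as whiskers, n = 3 per group) of protein-coding genes in their order along chromosome 1 around the complement regulator cluster, with n.t. for genes not tested. C4BPB (1.76) and CD55 (0.68) are above 0 and CD46 (-0.63) below.

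Transcription factors reported elsewhere to act on complement genes were read as a list, also drawn up with earlier results of these data known. All 7 were tested, and by limma 5 rose and 0 fell at the threshold of 0.05 (6 of 7 with the SOX4 shRNA arrays all above the scrambled ones). Over all rows 15.2% passed as higher. The groups did not overlap in 42.0%, a share that counts both directions, unlike the 6 of 7. CEBPD, an acute-phase factor, went from a log2 level of 7.88 ± 0.12 to 8.46 ± 0.04 (SD, n = 3), a rise of 0.58. IRF1, an interferon regulatory factor, rose by 0.44 with an SE of 0.06. NFKB1 rose by 0.25, a call lost with no intensity trend (adjusted p = 0.0832, limma) and without scrambled array 1 (0.0501). STAT3 had 0.22 on its brightest probe, a call lost in 8 of 15 settings, and its other probes gave 0.09 and 0.02 and did not pass. RELA had 0.28 (adjusted p = 0.0852, limma) and CEBPB 0.05 (adjusted p = 0.516, limma). The count was 3 with the authors' values or the mean of the probes of a gene, and 2 without scrambled array 1.

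Markers of cell types that make complement were read in the same arrays. Of 7 hepatocyte genes 2 were detected: ALB, at 180 to 212 on all arrays with a log2 difference of -0.002, and SERPINA1, also an acute-phase gene, which rose by 1.47. APOA1, APOB, TF, TTR and FGB were not above background on any array. The summed intensity of the 7 ran from 1003 to 1058 on the scrambled arrays and from 1286 to 1397 on the SOX4 shRNA arrays. This sum and those below are of deposited intensity with no background taken off, so genes at background make up much of them. Of 8 monocyte and macrophage genes 5 were detected and 2 rose, CD14 by 1.89 and CD68 by 0.21. The other detected genes, CSF1R, LYZ and AIF1, had log2 differences of -0.20, -0.13 and -0.34 and did not pass. PTPRC, CD163 and ITGAM were not above background on any array. The sum of the 8 was 2746 to 2979 against 3450 to 3642. Mean intensity went from 212 to 553 for CD14 and from 1770 to 2160 for CD68. Of 4 adipocyte genes, a cell type known for CFD, LEP was detected on all 6 arrays (158 to 175), LPL on 1 scrambled array, and ADIPOQ and FABP4 stayed at background throughout. The adipocyte sum was 516 to 530 against 496 to 531. Of 5 fibroblast genes, LUM was detected on 0 scrambled and 3 SOX4 shRNA arrays and COL1A1 on 1 scrambled array. The fibroblast sum was 592 to 609 against 611 to 632. LUM thus entered the test through the group where it was high, and its log2 difference of 0.49 did not pass. COL1A1 was not tested. Of 4 endothelial genes only PECAM1 was detected, on 1 scrambled and 2 SOX4 shRNA arrays (sum 461 to 478 against 460 to 489), and it was not called. The part of CD14, CD68 and SERPINA1 in the complement results was not tested.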

How the data were processed

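RNA of 3 scrambled and 3 SOX4 shRNA samples was run on HumanHT-12 v4 chips of Illumina. GenomeStudio 2011.1 is named in the submitters' processing notes. The authors deposited raw probe intensity (linear, with no background taken off and no scaling between arrays) and a detection p-value per probe and array. They also deposited log2 values with 1 row per gene, and a table with a linear fold of group means, from which genes low in both groups were removed. RMA and ArrayStar are named per the file headers of the fold table. The heading of that fold column names another hairpin, while a header line names the SOX4 samples, and its fold for SOX4 is 0.11.

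The function neqc of limma 3.58.1 (R 4.3.3) corrected background, added an offset of 16 and quantile normalized. A probe was kept if its detection p was under 0.01 on 3 or more arrays, and the brightest kept probe stood for a gene. The groups were fitted by lmFit, then eBayes (trend on). Benjamini-Hochberg adjustment ran over all 12451 rows, with a threshold of 0.05. Quantile normalization would hide a shift common to most genes. Second probes were tested in the same fit with every kept probe as a row. The fit was tested on simulated data. The 9 genes and the lists were chosen with earlier results of these data known. The rule for named genes took the 9 genes with every probe, SOX4 and the tested genes of the pathway list and the factor list. A search for genes most like C3 was not made, because C3 was not above background. Symbols are those of the chip, and all 9 matched RefSeq symbols of GRCh38.p14, the source of the promoters. No per-sample column was left out (0). Some genes counted in the pathway and factor lists are not reported here by name. Alternatives are in the closing section. Plots used Python 3.11.15 and matplotlib 3.10.9.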

Additional observations from a re-analysis of the deposited data

How the results depend on the processing

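The results were recomputed without background correction, with cyclic loess, the authors' values, those values with the replicate number as a block, detection required on all 6 arrays, no detection filter, every kept probe, the probe mean per gene and no intensity trend, and without each array in turn, 15 alternatives in all. A slide block was not run, as no slide is named in the files used here. CFB, CD55, CD59 and CFD kept their sign and call in all 15. CD46 kept its sign but not its call with the authors' values (-0.342), with or without the replicate block. Same-numbered samples of the groups had deviations that correlated between -0.0231 and 0.0155 over 3 pairs, which shows no pairing by number. So few pairs cannot exclude that same-numbered samples were prepared together. The replicate block changed no other call of the 9 genes. Replicate numbers are not given for every intensity column, so the block was run on the authors' values. The number of the 9 genes that rose was 2 in all 15, and the number that fell was 2 or 3. With every kept probe 4 rows fell, since CD59 then counts with both probes. Their median moved from -0.328 to -0.228 without background correction and to -0.0603 with no detection filter, which brings in the 4 dim genes. Leaving out 1 array gave medians of -0.388 to -0.276.

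Of the other complement genes, 5 rows fell with every kept probe, which counts each probe of a gene, and 2 to 3 genes fell with 1 array left out. Their median, from -0.0582 to 0.261 with 1 array left out, was 0.261 without scrambled replicate 1. The sign turned for CPN2 with the authors' values (0.07, also with the replicate block), and with 1 array left out for CFP (-0.0314 without scrambled replicate 2a, otherwise up to 0.312) and CFI (0.0449 without SOX4 shRNA replicate 2, otherwise down to -0.085), none of which passed. The number of factors that rose was 3 with no detection filter, the mean of the probes, no intensity trend or the authors' values with or without the replicate block, and 2 to 5 with 1 array left out (2 without scrambled replicate 1). Over all genes 1350 to 1944 rose and 1315 to 1923 fell, and with every kept probe as a row 2270 rose and 2270 fell. Signal over background limits what can be seen of C3, C1R, C1S and SERPING1.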

Other observations

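Of the complement genes left untested, C1QA, C2 and C4A were each above background on 1 SOX4 shRNA array, and CFHR5 on 1 scrambled array. The authors' deposited table of folds lists C1R at 1.07 and SERPING1 at 0.78, although no probe of these genes was above background on any array in the intensity table. C3 and C1S are not among its rows.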
